A study of Mus musculus with 4 samples.

Results

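Wnt10a and Wnt9a, both genes for secreted Wnt ligands, were the members described here, chosen by name from the 230 genes that the authors deposited under the label lack of response. That label was itself selected on the measured values used here. By the study's methods it stands for genes that differed between pentylenetetrazole (PTZ) and vehicle in tau+/+ brain and whose change from vehicle was absent or smaller in tau-/- brain. With tau-/- vehicle as the baseline for tau-/- PTZ, Wnt10a went against that label. Its log2 ratio of PTZ over vehicle was −1.06 in tau-/- and −0.91 in tau+/+. The headers of the authors' second comparison instead name tau+/+ vehicle as the baseline. Against that library the log2 ratio of tau-/- PTZ was −0.76, a smaller change than in tau+/+, as the label asks. Of 19 mouse Wnt ligand genes, these 2 were in the table, a count without a share over all measured genes beside it. PTZ blocks inhibitory GABA receptors and provokes seizures, and the comparisons ask how brain transcripts answered it with and without the microtubule-associated protein tau.

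RNA came from brain of C57Bl/6 mice, 6 weeks of age, in 4 libraries: tau+/+ vehicle (labelled sham), tau+/+ PTZ, tau-/- vehicle and tau-/- PTZ. PTZ was given into the peritoneum at 50 mg/kg, brains were taken 1 h later, and the sequenced PTZ mice had been matched for how severe their seizures were. The label text also speaks of primary neurons, while the source label and the study's methods name brain and injected mice. How many mice gave each library, and which brain region, is not given in the sources used here. Each condition had 1 library, so every ratio given here lacks a replicate check, no test was made, and spread within a condition is unknown. The values were in FPKM, fragments scaled to the length of the transcript in kilobases and to the mapped fragments of the library, which can be compared between genes because they are scaled to transcript length. FPKM values do not hold a library's depth, and the study's methods give only a lower limit for all samples, so no counting error was attached to the values.

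Wnt proteins are lipid-modified signals that act over short distances. They bind Frizzled receptors, with LRP5 or LRP6 as co-receptors in the branch that stabilises β-catenin and lets it act with TCF/LEF factors on target genes, or with other co-receptors in branches that do not use β-catenin. In brain, Wnt signals pattern the embryonic neural tube and in the adult take part in synapse formation and neurogenesis. WNT10A is best known for its role in teeth, hair and skin, where it signals through β-catenin, and WNT9A for its role in joint formation.

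Both genes lie beside another Wnt gene, in pairs that vertebrates share. In GRCm38, Wnt10a (ENSMUSG00000026167.14) covers chromosome 1 from 74791516 to 74804179 on the plus strand, and Wnt6 ends 6.19 kb before it on the same strand. Its full-length transcript has 4 exons, 2468 bases and 417 codons. Wnt9a (ENSMUSG00000000126.11) covers chromosome 11 from 59306928 to 59333552 on the plus strand, and Wnt3a lies 16.2 kb before it on the minus strand, so that this pair points apart. The Wnt9a transcript with a consensus coding sequence has 4 exons, 3318 bases and 365 codons. Neither Wnt6 nor Wnt3a was in the table, so the neighbours' responses were not analysed here.

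The RefSeq promoter windows (GRCm38.p6, from 250 bases before to 50 bases after a start) matched 1 of the 2 genes, Wnt9a. The window is set by a start at 59306930, while the gene as a whole begins at 59306849 in RefSeq and at 59306928 in GENCODE. The sequence is shown as the stretch of the window before all of these starts, chr11:59306680-59306848 on the plus strand. Capitals mark GC boxes (GGGCGG on either strand), letters that Sp1-type factors bind.

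Wnt9a promoter: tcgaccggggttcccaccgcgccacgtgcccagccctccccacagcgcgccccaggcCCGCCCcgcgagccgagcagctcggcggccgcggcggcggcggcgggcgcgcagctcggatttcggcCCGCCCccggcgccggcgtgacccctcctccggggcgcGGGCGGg

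The window of 300 bases held 5 GC boxes, 3 of them in the stretch printed, and 35.7% of 32851 windows held at least 1. With 83.3% G or C and 58 CpG it was among the richest windows, since 99.7% of them had less G or C and 99.9% had fewer CpG. It held no match on either strand to CTTTGAT, a TCF/LEF letter string found in 3.73% of windows, to TGAGTCA (AP-1, 5.20%), to TGACG (the half-site of the cAMP response element, 20.8%) or to TATAAA (the TATA box, 13.6%). These matches describe letters in a window and not sites that were bound.

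Listed genes outside the Wnt family were looked at first. A tau+/+ response with a weaker tau-/- response is a condition of the list. Their values are therefore no independent check of the libraries. The immediate-early gene Fos was higher after PTZ in both genotypes, with log2 ratios of PTZ over vehicle of 4.13 in tau+/+ and 1.01 in tau-/-. Arc, another immediate-early gene, did not do the same, with a log2 ratio of 2.11 in tau+/+ but a lower level after PTZ in tau-/-, at 33.6 against 67.2 FPKM. The tau-/- PTZ library stood apart in choroid plexus, the epithelium that secretes cerebrospinal fluid. Of 10 markers of this epithelium, 7 were in the table, and their summed level was 1548 FPKM in tau+/+ vehicle, 2569 in tau+/+ PTZ, 1138 in tau-/- vehicle and 35.9 in tau-/- PTZ. Ttr made up most of each sum. Without it, the other 6 summed to 44.6 FPKM in tau+/+ vehicle, 76.8 in tau+/+ PTZ, 30.3 in tau-/- vehicle and 2.88 in tau-/- PTZ. Of 4 markers of the meninges, 2 were in the table, and their summed level was likewise highest in tau+/+ PTZ at 7.60 FPKM and lowest in tau-/- PTZ at 2.83 FPKM, with 4.66 in tau+/+ vehicle and 3.98 in tau-/- vehicle. None of 14 markers of neurons, astrocytes, oligodendrocytes and microglia and none of 3 endothelial markers was in the table, so these cell types could not be checked, and Mapt, the gene of tau, was not analysed here.

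Wnt10a transcript was lower after PTZ in both genotypes. Its level was 1.43 FPKM in tau+/+ vehicle, 0.763 in tau+/+ PTZ, 1.76 in tau-/- vehicle and 0.847 in tau-/- PTZ. Both PTZ libraries were below both vehicle libraries, with a gap from 0.847 to 1.43 FPKM between them. The PTZ level was 53.3% of vehicle in tau+/+, a 1.88-fold lower level (log2 ratio −0.91), and 48.0% of vehicle in tau-/-, a 2.08-fold lower level (log2 ratio −1.06).

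Wnt9a transcript was also lower after PTZ in both genotypes, at a slightly higher level. It stood at 1.80 FPKM in tau+/+ vehicle, 1.00 in tau+/+ PTZ, 2.05 in tau-/- vehicle and 1.21 in tau-/- PTZ. Again both PTZ libraries were below both vehicle libraries. The PTZ level was 55.6% of vehicle in tau+/+ (1.80-fold lower, log2 ratio −0.85) and 59.2% of vehicle in tau-/- (1.69-fold lower, log2 ratio −0.76). The difference between PTZ and vehicle was thus past the study's limit of 1.5-fold in both genotypes for both ligands.

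**Figure D1:**
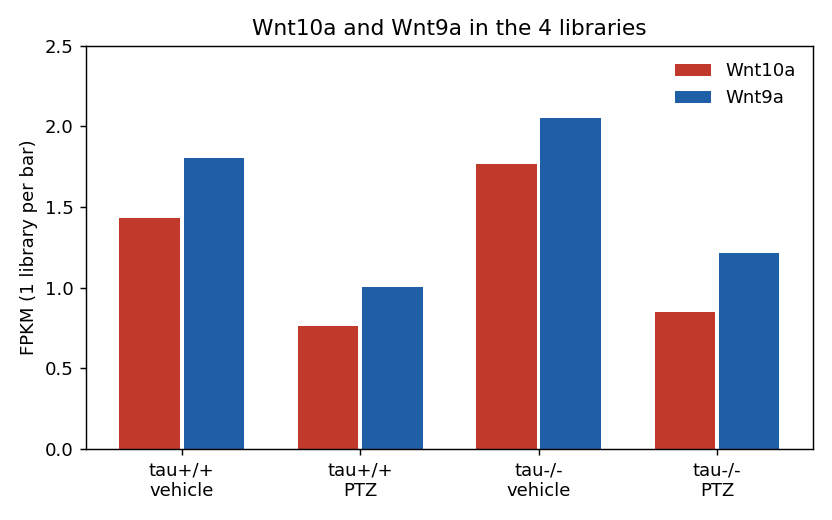
Levels of Wnt10a (red) and Wnt9a (blue) in FPKM, 1 library per bar and no error bars because there were no replicates. In each genotype both genes stand lower with PTZ than with vehicle, and Wnt9a is above Wnt10a in all 4 libraries.

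For the tau+/+ response, lying past 1.5-fold is a condition of the table, and 23.9% of the 230 listed genes were lower past that limit, so nothing is read from it. In tau-/-, 16.5% of the listed genes were lower with PTZ past 1.5-fold, but among the 55 genes that were lower in tau+/+ the share was 12.7%, or 7 genes, and both Wnt genes were among them. Over these 55 genes the tau-/- log2 ratio had a median of −0.15 and ran from −1.06 to 0.68. Wnt10a was the lowest of the 55 and Wnt9a the fourth lowest. In tau+/+ they were less extreme, 15th and 26th lowest, against a median of −0.82. Since the libraries were used to choose the genes, these ranks are descriptions. The sums of the listed choroid plexus and meninges markers were highest in tau+/+ PTZ and lowest in tau-/- PTZ. Both Wnt levels were lowest in tau+/+ PTZ. All of these genes were listed on the same values, and markers outside the table were not seen, so this contrast is a description only. The part of tissue makeup in the tau-/- values was not tested. In whole-tissue RNA, fewer cells of a type and less RNA per cell cannot be told apart.

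**Figure D2:**
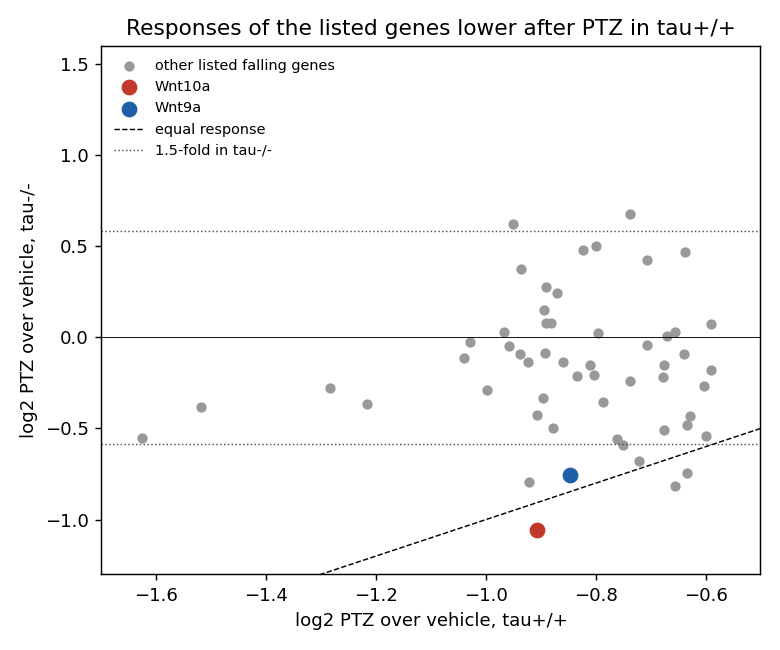
Log2 ratio of PTZ over vehicle in tau+/+ (x axis) and tau-/- (y axis) for the 55 listed genes lower after PTZ in tau+/+, 1 point per gene. The dashed line marks equal responses and the dotted lines 1.5-fold in tau-/-, and Wnt10a (−0.91, −1.06) lies below the dashed line while Wnt9a (−0.85, −0.76) lies just above it.

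The ratio between genotypes was smaller than the ratio between treatments for both genes. The log2 response of Wnt10a was 0.15 lower in tau-/- than in tau+/+ (difference −0.15), and that of Wnt9a was 0.09 higher. Over the 55 genes, this difference had a median of 0.68 and ran from −0.16 to 1.57, and it was below 0 for 3 genes, Zfp882, Wnt10a and Plagl2. Averaged over genotypes, the log2 ratio of PTZ over vehicle was −0.98 for Wnt10a and −0.80 for Wnt9a. Averaged over treatments, the log2 ratio of tau-/- over tau+/+ was 0.23 for both genes.

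Both ligands were somewhat higher in tau-/- brain under either treatment, and in no case past 1.5-fold. After vehicle, tau-/- was 1.23-fold higher than tau+/+ for Wnt10a and 1.14-fold higher for Wnt9a, against 13.9% of listed genes that were higher past 1.5-fold. After PTZ, tau-/- was 1.11-fold higher for Wnt10a and 1.21-fold higher for Wnt9a, against 6.09% of listed genes past 1.5-fold. That share is 14 of 230 genes, and all of them were among the 55 genes lower after PTZ in tau+/+. The share among genes like the ligands is therefore larger than 6.09%. After vehicle, tau-/- was the higher genotype for 135 of all 230 listed genes, the direction of both Wnt genes. It was the lower genotype for 41 of the 55 genes, and the 2 Wnt genes were among the 14 for which it was the higher. Choosing genes that were lower after PTZ in tau+/+ favours a high tau+/+ vehicle level, so the count over the 55 is a description. All 55 were higher in tau-/- PTZ than in tau+/+ PTZ, and none of the 175 listed genes higher after PTZ in tau+/+ was. The direction after PTZ thus came with the list and is not read as a result about the ligands. Only the comparison after vehicle was free of it, and it rests on 1 library per genotype.

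The choice of vehicle library changed on which side of 1.5-fold Wnt9a lay. Set against tau+/+ vehicle instead of tau-/- vehicle, which is the pair named by the headers of the authors' second comparison, the tau-/- PTZ level was 1.69-fold lower for Wnt10a (log2 ratio −0.76) and 1.49-fold lower for Wnt9a (log2 ratio −0.57), the latter just within 1.5-fold. Against that baseline the tau-/- difference was smaller than the tau+/+ difference for both genes. With a shared baseline this says only that the tau-/- PTZ level was above the tau+/+ PTZ level. That held for all 55 listed genes lower after PTZ in tau+/+, so nothing is read from it for the ligands. With a single vehicle library per genotype, a higher level in tau-/- mice and the error of a library cannot be told apart.

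The ratio of the ligands to each other stayed between 1.16 and 1.43. Wnt9a was 1.26 times Wnt10a in tau+/+ vehicle, 1.32 times in tau+/+ PTZ, 1.16 times in tau-/- vehicle and 1.43 times in tau-/- PTZ. Their summed level was 3.24 FPKM in tau+/+ vehicle and 1.77 in tau+/+ PTZ, and 3.82 in tau-/- vehicle and 2.06 in tau-/- PTZ. These are low levels for the table. By the mean of the 4 libraries, Wnt10a at 1.20 FPKM ranked 26th from the lowest of the 230 genes and Wnt9a at 1.52 FPKM ranked 47th, where the median gene had 3.90 FPKM. The 55 genes lower after PTZ in tau+/+ were themselves low, with a median of 1.84 FPKM. Among them Wnt10a ranked 9th from the lowest and Wnt9a 20th.

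Both genes put the libraries in the same order, with tau-/- vehicle highest, then tau+/+ vehicle, tau-/- PTZ and tau+/+ PTZ. Of the 230 genes, 14 (6.09%) had this order. It includes a lower level after PTZ in tau+/+, so all 14 were among the 55 by definition, 25.45% of them. The higher tau-/- PTZ level in this order held for all 55. The 14 included all 7 genes that were lower past 1.5-fold in both genotypes. Beside the Wnt genes these 7 were Zfp882, Zfp748 and Rbak, which encode zinc finger proteins, Plagl2, a zinc finger transcription factor, and Hist2h3c2, a gene for histone H3. Their log2 responses in tau-/- were −0.82 for Zfp882, −0.80 for Hist2h3c2, −0.74 for Plagl2, −0.68 for Rbak and −0.59 for Zfp748. Hist2h3c2 shares near-identical sequence with other H3 genes, so its reads may be divided between copies.

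Likeness of pattern was measured as the root mean square distance between log2 FPKM values, each gene centred on its mean over the 4 libraries, among the 229 genes above 0 in all of them. The gene nearest to Wnt9a was Hist2h3c2, at 0.03, followed by Rbak at 0.05, Zfp882 at 0.07, Plagl2 at 0.08 and Clp1, an RNA kinase of tRNA splicing and mRNA 3′ end formation, at 0.08. The gene nearest to Wnt10a was again Hist2h3c2, at 0.09, followed by Wnt9a at 0.11, Zfp882 at 0.12, Plagl2 at 0.15 and Rbak at 0.15. Wnt10a was sixth nearest to Wnt9a. The median distance of all 228 other genes was 0.79 from Wnt10a and 0.74 from Wnt9a. Of the 230 listed genes, 175 were higher after PTZ in tau+/+ and differ from the Wnt genes by direction alone. A median over the falling genes was not computed, so the small distances are not read as a special likeness. With 4 libraries the measure rests on 4 points per gene, which share the same libraries.

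**Figure D3:**
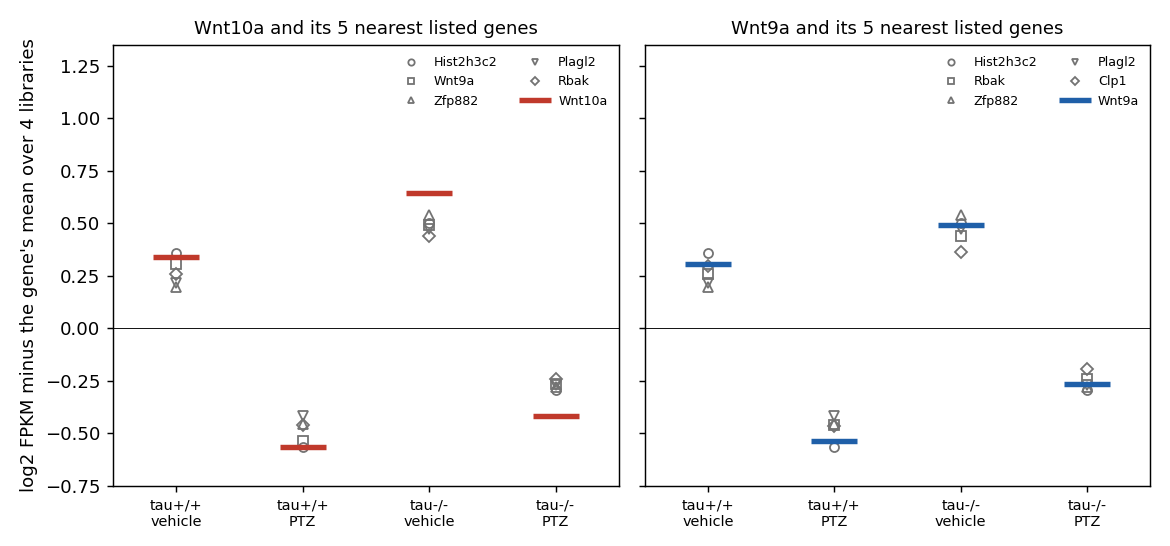
Log2 FPKM of Wnt10a (left, red bars) and Wnt9a (right, blue bars) and of their 5 nearest listed genes (open symbols), each centred on the gene's mean over the 4 libraries. The vehicle libraries lie above 0 and the PTZ libraries below 0 for each gene shown, and Wnt10a stands above its 5 neighbours in tau-/- vehicle and below them in tau-/- PTZ.

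Other genes of the Wnt pathway were also looked up in the table. Of 85 ligands, receptors, antagonists, signalling proteins and targets, 4 were listed, the 2 ligands, Sostdc1 and Jun. No Frizzled, LRP, TCF/LEF or Axin gene was. The share of all measured genes that the table holds was not computed, so this count is not read as low or high. Sostdc1, a secreted antagonist of BMP and Wnt ligands, moved the other way in tau+/+, from 9.18 to 15.6 FPKM, and went from 5.73 to 1.503 FPKM in tau-/-. It is also 1 of the choroid plexus markers that were low in tau-/- PTZ. Jun, a subunit of the AP-1 factor and a target of Wnt signals in some settings, was higher with PTZ in tau+/+ at 71.0 against 34.6 FPKM, a log2 ratio of 1.04, and had a log2 ratio of 0.20 in tau-/-. Genes outside the table were not analysed, so no statement can be made about the activity of the pathway.

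Among 7 listed genes chosen as secreted ligands, the Wnt genes were the 2 with lower levels past 1.5-fold in both genotypes. Over all 230 listed genes, 7 were lower past 1.5-fold in both. Cbln1, a synapse-organising protein of the C1q family, was also lower in tau+/+, from 3.26 to 1.87 FPKM, but in tau-/- went from 1.79 to 2.54 FPKM. The other 4 were higher with PTZ in tau+/+, with log2 ratios of 1.01 for the neurotrophin Bdnf, 2.43 for the neuropeptide Gal, 0.79 for the pentraxin Nptx2 and 0.80 for the semaphorin Sema3b. Their log2 ratios in tau-/- were −0.22 for Bdnf, 0.31 for Gal, −0.15 for Nptx2 and −1.92 for Sema3b. The 4 genes higher in tau+/+ could not be lower in both genotypes. This list was put together from the names in the table and may not hold every secreted ligand there. Its counts describe these genes only.

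**Figure D4:**
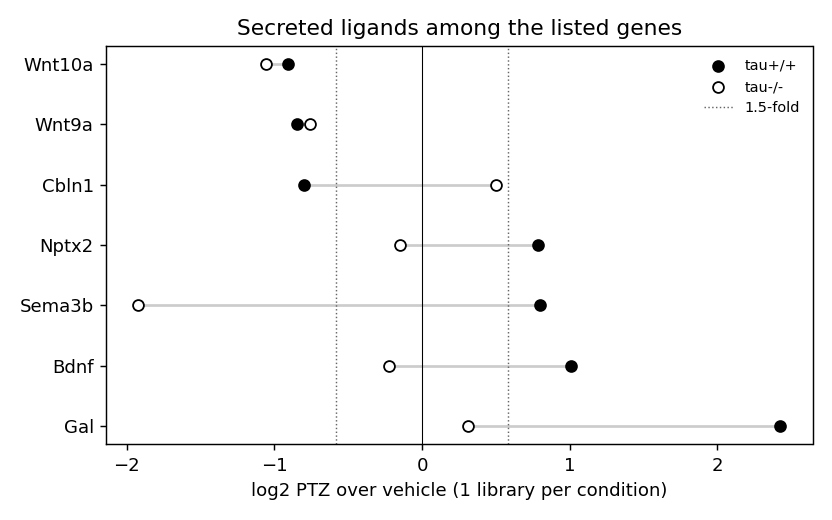
Log2 ratio of PTZ over vehicle for the 7 listed secreted ligands, in tau+/+ (filled) and tau-/- (open), 1 library per condition, with dotted lines at 1.5-fold. Both points of Wnt10a and of Wnt9a lie to the left of the lower dotted line, and the points of the other 5 genes lie farther from each other.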

How the data were processed

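Per the submitters' processing notes and the study's methods, the authors aligned read pairs to GRCm38/mm10 with TopHat2 2.03 and Bowtie2 2.0.0.6, after CASAVA 1.7, and used Cuffdiff 2.01 to compute the deposited FPKM values. The annotation is not given in the sources used here. The 4 deposited columns of the authors' fold changes and p-values were not used. FPKM divides by the library total, so a few abundant transcripts can move all others. Each of the 4 columns was matched to its library by the header and the library's title.

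Log2 ratios were computed without a pseudocount, and a gene was counted past 1.5-fold as in the study. Defb11, at 0 FPKM in tau-/- PTZ, was counted as lower. The members, the gene lists and the rule for named genes were chosen with earlier results of these data known. The rule named the 2 ligands, their 5 nearest genes and genes lower past 1.5-fold in both genotypes. It also named listed Wnt pathway genes and ligands, with Arc, Fos and Ttr for comparison. Ttr had log2 ratios of PTZ over vehicle of 0.73 in tau+/+ and −5.07 in tau-/-. Positions were taken from GENCODE M21. The functions were tested on simulated data. Python 3.11.15, numpy 2.4.6, pandas 2.3.3 and matplotlib 3.10.9 were used.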

Additional observations from a re-analysis of the deposited data

How the results depend on the processing

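Of 34 recomputed values, 15 moved by at least 0.1 on the log2 scale, crossed 1.5-fold or, for counts, changed by over 1.5 times, and none changed sign. All 12 recomputed ratios of PTZ over vehicle were below 0. A pseudocount of 0.1 FPKM moved no ratio that far. A pseudocount of 1 FPKM, close to the levels themselves, brought every ratio of PTZ over vehicle within 1.5-fold. The log2 ratios were then −0.46 in tau+/+ and −0.58 in tau-/- for Wnt10a, and −0.48 in tau+/+ and −0.46 in tau-/- for Wnt9a. It also gave log2 ratios of tau-/- over tau+/+ of 0.19 for Wnt10a after vehicle and 0.14 for Wnt9a after PTZ. With tau+/+ vehicle as baseline, the tau-/- log2 ratios were −0.76 for Wnt10a and −0.57 for Wnt9a. Less the median of all listed genes (0.11), the log2 ratios of tau-/- over tau+/+ after vehicle were 0.19 for Wnt10a and 0.079 for Wnt9a.

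In tau-/-, the 38 listed genes lower past 1.5-fold became 23 at 2-fold and 21 with a pseudocount of 1 FPKM, and 30 without choroid plexus and meninges markers, a count added after the data were seen. Of the 55 genes lower in tau+/+, the 7 lower past 1.5-fold in tau-/- became 1 with a limit of 2-fold in tau-/-, Wnt10a, whose tau+/+ level was 1.88-fold lower, and 1 with a pseudocount of 1 FPKM, Hist2h3c2. With tau+/+ vehicle as baseline they became 9, of which 2, Wnt10a and Hist2h3c2, were among the 7. With a pseudocount of 1 FPKM, 3 of the 5 genes nearest to Wnt9a and 4 of those nearest to Wnt10a were the same. Leaving out a replicate was not possible with 1 library per condition, and identity between the proteins was not computed.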
